A study of Mus musculus with 18 samples.

Results

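Integrins are adhesion receptors built from an alpha and a beta chain, and the 10 genes described here encode chains of the kinds that leukocytes carry. They were taken by symbol from the table of 25926 genes, where all 10 were found: Itgb2 with alpha partners Itgal, Itgam and Itgax, Itgb1 with Itga4, Itga5, Itga6 and Itgav, and Itgb7, which also pairs with Itga4. An alpha chain reaches the cell surface only as a dimer with a beta chain, and the pair decides what is bound. The beta-2 integrins LFA-1 (Itgal and Itgb2), Mac-1 or CR3 (Itgam and Itgb2) and CR4 (Itgax and Itgb2) bind intercellular adhesion molecules, complement fragments and fibrinogen. The beta-1 integrins bind matrix and vascular ligands, fibronectin for the dimers with Itga4 and Itga5, VCAM-1 for the dimer with Itga4, and laminin for the dimer with Itga6.

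The macrophages were BMDMs, grown for 7 days from the marrow of C57BL/6J mice with 50 ng/mL M-CSF. Each Transwell (0.4 μm pores) held them above primary tubular epithelial cells (TECs) of wild-type mouse kidney. The NC group (n = 6) had BMDMs under PBS and TECs left without crystals. The COM group (n = 6) had BMDMs under PBS and TECs given 100 μg/mL of calcium oxalate monohydrate crystals for 24 h. In the COM+Met group (n = 6) the BMDMs above crystal-exposed TECs received Met at 5 mM for 24 h, an abbreviation that the labels do not spell out. No group had Met without crystals. COM against NC asks how crystal exposure of the TECs changed the macrophages, and COM+Met against COM asks what Met changed on top of it.

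Itgal, Itgam and Itgax lie on the same arm of chromosome 7. In GRCm38 with the GENCODE M21 annotation, all protein-coding and on the plus strand, Itgal runs from 127296260 to 127335138, Itgam from 128062640 to 128118491 and Itgax from 128129547 to 128150657. Itgam and Itgax are separated by 11055 bp, and Itgal and Itgam by 727501 bp. Itgb2 is on chromosome 10 (77530252 to 77565708, plus), Itga6, Itga4 and Itgav are on chromosome 2, Itga5 and Itgb7 are on chromosome 15 on the minus strand, and Itgb1 is on chromosome 8 (128685654 to 128733200, plus). Because Itgam and Itgax are neighbours and their levels were high and low in the same NC and COM samples, the 250 bases before their RefSeq starts are printed here from GRCm38.p6, on the plus strand. Itgam comes from chr7:128062390-128062639 and Itgax from chr7:128129300-128129549. Capitals mark GAGGAA, the core bound by the myeloid factor PU.1, or its complement TTCCTC.
Itgam: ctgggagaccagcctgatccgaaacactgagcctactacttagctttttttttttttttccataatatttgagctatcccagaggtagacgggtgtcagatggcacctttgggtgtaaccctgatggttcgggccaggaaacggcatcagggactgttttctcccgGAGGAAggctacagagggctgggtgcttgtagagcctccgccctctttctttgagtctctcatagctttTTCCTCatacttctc
Itgax: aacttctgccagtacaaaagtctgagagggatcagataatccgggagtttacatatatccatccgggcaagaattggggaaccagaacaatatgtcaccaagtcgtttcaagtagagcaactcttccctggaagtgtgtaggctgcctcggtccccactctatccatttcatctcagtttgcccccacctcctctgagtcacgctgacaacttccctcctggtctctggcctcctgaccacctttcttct
The Itgam window holds 2 matches, which begin 84 bases before the start on the plus strand and 15 bases before it on the minus strand, and the Itgax window holds 0. Of 32851 promoter windows of this length, 23.3% hold a match on either strand, and 7 of the 10 genes have a window in the table used. Of the other genes with a window, Itga5, Itgav and Itgb1 also hold matches (1, 2 and 1), while Itga4 and Itgb7 hold 0. Other motifs were searched too, and the Itgam window holds 1 Sp1 box (GGGCGG), which 32.7% of all windows hold. A match is letters only, and binding was not measured.

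Values are FPKM as deposited, which are fragments per length of gene and per total of the sample, so that levels of different genes can be compared on this scale. The FPKM sums were 415715 to 430822 in NC, 380731 to 449186 in COM and 430165 to 441308 in COM+Met, and the read depth is unknown. Whether the 6 samples of a group were separate cultures is not stated, so p-values speak only of the spread among these samples, and that spread may be technical. Some samples stood apart from others of their group. Over all genes expressed, NC-1 to NC-4 correlated with each other at 0.985 to 0.995 but with NC-5 and NC-6 at 0.938 to 0.962. Among COM-1, COM-2 and COM-3 the correlations were 0.992 to 0.994, but those with COM-4 to COM-6 were 0.888 to 0.951, and COM-6 correlated with COM-4 and COM-5 at 0.930 to 0.935. No batch or date is given for any sample. The COM+Met samples correlated at 0.989 to 0.995. All 10 macrophage markers checked, among them Csf1r, Adgre1, Cd68 and Lyz2, had a mean above 1 FPKM in each group. The summed FPKM of 12 neutrophil markers was 573 to 1044 in NC, 192 to 573 in COM and 90.6 to 150 in COM+Met, with Mmp8, S100a8 and S100a9 the highest in NC, while Ly6g, Mpo and Elane were at 0 in every COM sample and had means of 0.0584, 0.145 and 0.479 FPKM in NC. Camp and Csf3r had higher means in COM (7.93 and 12.6 FPKM) than in NC (4.33 and 9.68), and the other neutrophil markers had lower ones. The summed FPKM of 8 dendritic cell markers was 4.07 to 28.9 in NC, 64.2 to 228 in COM and 39.2 to 76.6 in COM+Met, mostly from Ccr7. The 10 lymphocyte markers summed to at most 3.50 FPKM in any sample.

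In NC the order of the levels was Itgb2 (674 ± 13.1 FPKM, mean ± SD, n = 6), Itgam (298 ± 109), Itgb1 (145 ± 10.8), Itgax (117 ± 54.0), Itgal (72.9 ± 11.3), Itga5 (49.1 ± 4.67), Itga4 (15.7 ± 3.48), Itgb7 (14.2 ± 8.96), Itgav (10.2 ± 0.340) and Itga6 (4.50 ± 1.96). Itgb2 made up 43.5% to 58.7% of the summed FPKM of the 10 genes in NC samples. The ranges of the samples overlapped between these neighbours in the order: Itgam and Itgb1, Itgb1 and Itgax, Itgax and Itgal, Itga4 and Itgb7, and Itgb7 and Itgav. In COM the first 3 places were unchanged in order, Itgal and Itga5 stood above Itgax by their means, and Itgb7 (3.20 ± 1.29 FPKM) stood below Itgav (10.1 ± 0.684). In COM+Met Itgb1 (261 ± 10.6 FPKM) stood above Itgam (152 ± 7.38) in all 6 samples, and only Itgam and Itgal (145 ± 9.38) overlapped as neighbours.

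**Figure D1:**
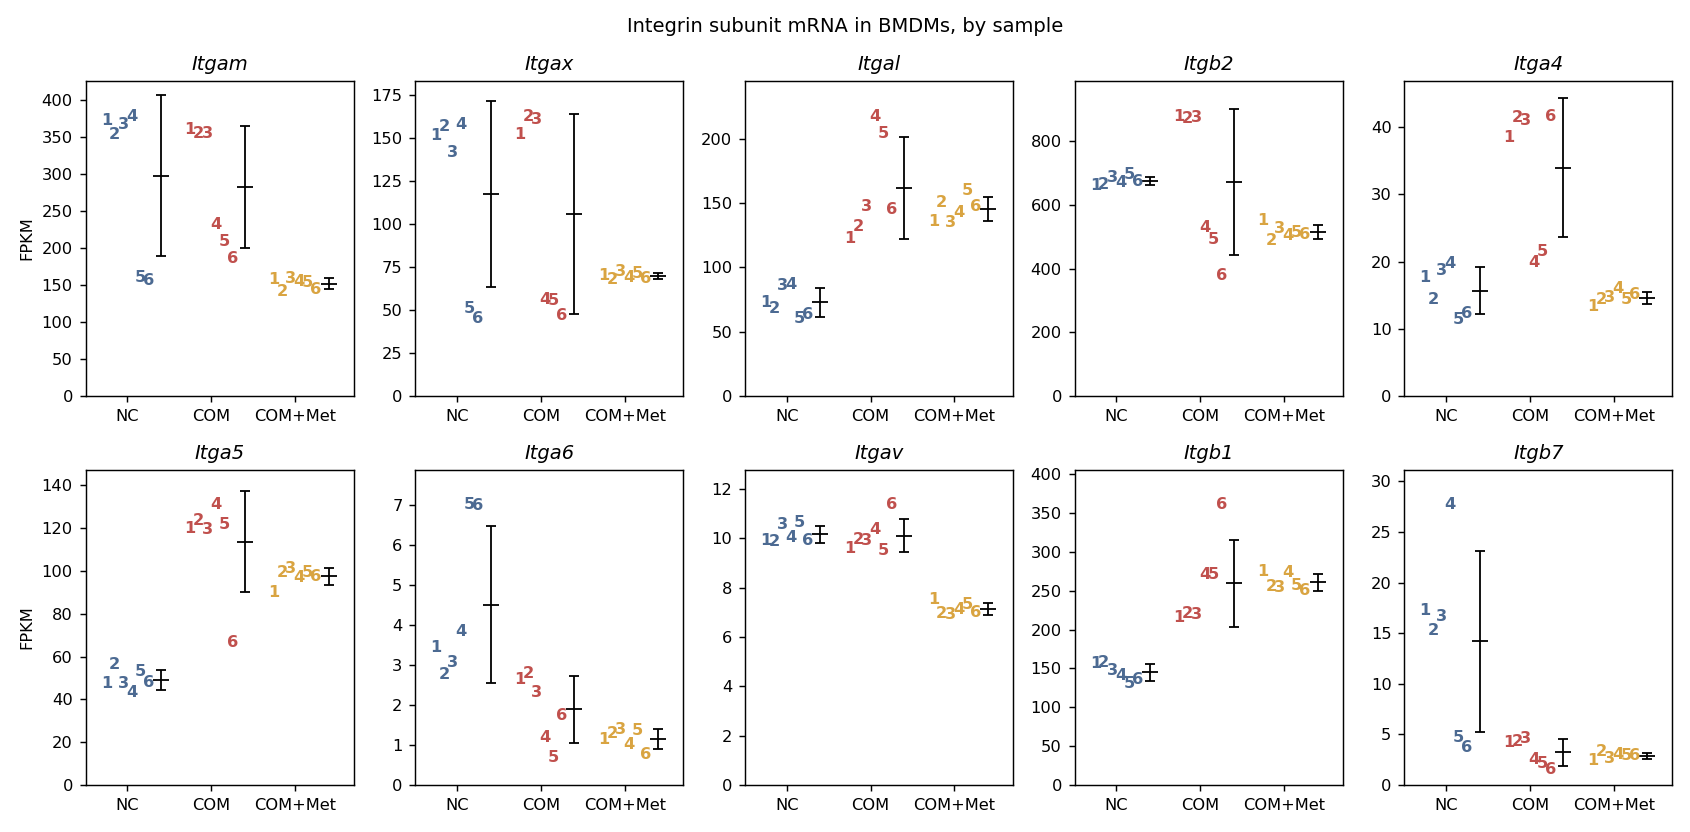
FPKM of the 10 integrin subunits in each sample. Each digit is the replicate number of a sample at its FPKM (linear axis from 0), in NC (blue), COM (red) and COM+Met (yellow), and the black bar is the group mean ± SD (n = 6). Itgam and Itgax are at a high level in NC-1 to NC-4 and COM-1 to COM-3 and at a low level in NC-5, NC-6 and COM-4 to COM-6. In COM+Met Itgax (67.6 to 72.5 FPKM) lies between these levels.

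Crystal exposure of the TECs was followed by higher Itgal, Itgb1, Itga5 and Itga4 and lower Itgb7 and Itga6 in the macrophages, while Itgam, Itgax, Itgb2 and Itgav did not pass the test. The test was limma on log2(FPKM + 1), adjusted over all 10900 genes tested, and a gene passed at an adjusted p below 0.05. Of the 10 genes, 4 rose, beside 12.7% of all genes tested, and 2 fell, beside 40.6%. With a change of at least 2-fold as well, 3 rose (background 5.99%) and 1 fell (background 11.7%). The 6 COM samples lay wholly above the 6 NC samples for 4 of the 10 genes (background 8.6%) and wholly below for 0 (background 29.7%). The median log2 change of all genes tested was -0.27, and median-of-ratios size factors moved it to 0.0048, with 1382 genes higher and 4423 lower as deposited but 2559 higher and 2579 lower with the size factors. Changes relative to this median are therefore given as well. The median log2 change of the 10 genes was -0.018.

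Among the beta-2 integrins, Itgal, the alpha chain of LFA-1, rose. It measured 60.4, 70.4 and 86.9 FPKM in NC (lowest, median, highest) and 123, 146 and 218 in COM, so the lowest COM sample was above the highest NC sample. The means differed 2.21-fold, with a log2 change of 1.12 (SE 0.16, adjusted p = 0.000116) and of 1.39 relative to the median gene. The two-sided exact permutation p was 0.00216, the smallest that 6 against 6 samples can give.

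Itgam, the alpha chain of Mac-1, was at 2 levels within each group. It measured 354 to 378 FPKM in NC-1 to NC-4, 156 to 160 in NC-5 and NC-6, 354 to 360 in COM-1 to COM-3 and 186 to 232 in COM-4 to COM-6. The groups overlapped, and the log2 change was -0.03 (SE 0.29, adjusted p = 0.941). Itgax, the alpha chain of CR4 and a common marker of dendritic cells, showed the same division. It measured 141 to 158 FPKM in the first 4 NC samples, 45.2 to 51.1 in NC-5 and NC-6, 152 to 163 in COM-1 to COM-3 and 47.2 to 56.1 in COM-4 to COM-6. Its log2 change was -0.18 (SE 0.44, adjusted p = 0.748). In samples with low Itgam and Itgax the neutrophil marker sum was 573 to 595 FPKM in NC and 192 to 254 in COM, against 912 to 1044 and 539 to 573 in the others of each group, and the dendritic cell marker sum was 4.07 to 5.59 and 64.2 to 69.1 against 20.9 to 28.9 and 208 to 228. The part of these cells in the 2 levels was not tested, and in bulk RNA fewer cells of a type and less RNA per cell cannot be told apart.

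Itgb2, the chain that all beta-2 dimers share, varied little in NC (660, 672 and 694 FPKM) but from 379 to 878 in COM. COM-1 to COM-3, at 869 to 878 FPKM, were above every NC sample, and COM-4 to COM-6, at 379 to 528, were below every NC sample. The change over all samples was -0.09 (SE 0.21, adjusted p = 0.743), and its direction was the opposite with size factors (0.23, adjusted p = 0.197). Itgb2 rose by 0.37 (adjusted p = 0.000177) when COM-4 to COM-6 were left out.

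The summed FPKM of Itgal, Itgam and Itgax gives the share of each partner in the alpha chain mRNA available to Itgb2, described here without a test. Itgal made up 16.4% ± 5.28 in NC, 31.1% ± 11.7 in COM and 39.6% ± 2.20 in COM+Met. Itgam made up 60.7% ± 1.41, 50.8% ± 4.94 and 41.4% ± 1.87, and Itgax 22.9% ± 4.03, 18.1% ± 6.94 and 19.0% ± 0.418. Itgal and Itgam were thus close to equal in COM+Met. In COM the Itgal share was 19.3% to 22.2% in COM-1 to COM-3 and 38.3% to 43.5% in COM-4 to COM-6. The ratio of Itgb2 to the 3 alpha chains was 2.55 to 2.56 in NC-5 and NC-6, 1.08 to 1.15 in the other NC samples, 1.00 to 1.38 in COM and 1.34 to 1.51 in COM+Met.

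**Figure D2:**
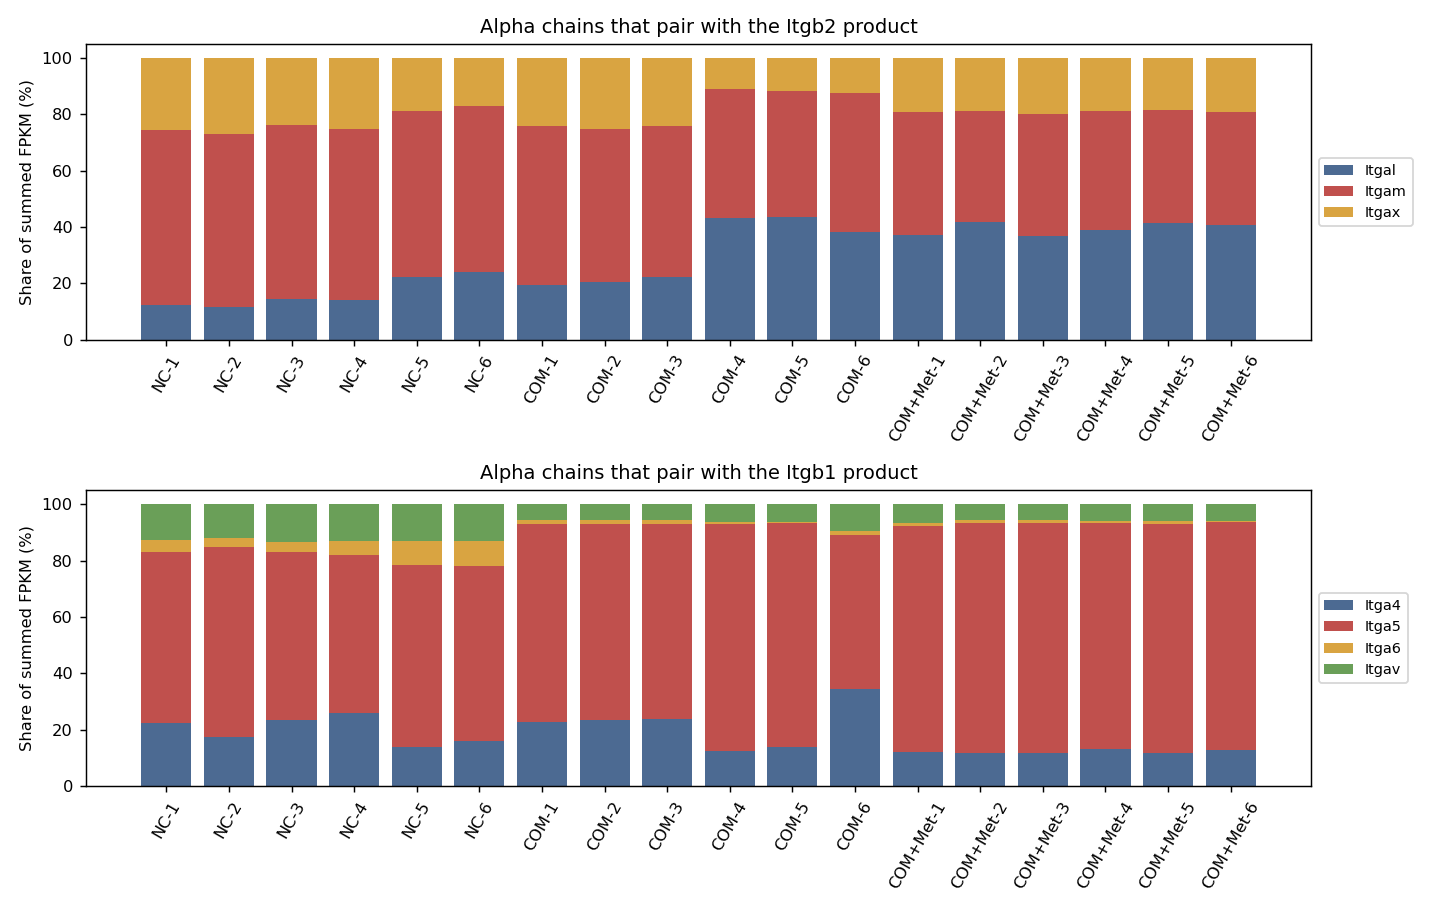
Share (%) of each alpha chain in the summed FPKM of the 3 alpha chains Itgal, Itgam and Itgax (upper panel, without Itgad, another partner of Itgb2) and of the 4 alpha chains Itga4, Itga5, Itga6 and Itgav (lower panel, without other partners of Itgb1 such as Itga1), with a stacked bar for each of the 18 samples. Itgal takes 11.8% to 23.9% of the 3 chains in NC and 36.8% to 41.9% in COM+Met, and Itga5 takes 80.1% to 81.5% of the 4 chains in COM+Met.

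Among the beta-1 integrins, the common chain Itgb1 measured 130, 145 and 157 FPKM in NC and 215, 246 and 361 in COM, with no overlap. It rose by 0.82 on the log2 scale (SE 0.13, adjusted p = 0.000311), and by 1.08 relative to the median gene. Itga5, the chain of the main fibronectin receptor, measured 43.1, 47.5 and 56.2 FPKM in NC and 66.4, 121 and 131 in COM. The lowest COM value belonged to COM-6, and it was still above every NC sample. Itga5 rose by 1.17 (SE 0.16, adjusted p = 6.04e-05). Itga4, the chain of VLA-4, measured 11.5, 16.0 and 19.7 FPKM in NC and 19.9, 39.7 and 41.6 in COM, again with no overlap, although COM-4 and COM-5 (19.9 and 21.5) were close to the highest NC sample. It rose by 1.03 (SE 0.22, adjusted p = 0.00172).

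Itga6, the laminin receptor chain and the lowest of the 10 genes, measured 2.74, 3.63 and 7.00 FPKM in NC and 0.687, 2.01 and 2.78 in COM. COM-2 was just above the lowest NC sample, so the groups overlapped. Itga6 fell by 0.92 (SE 0.25, adjusted p = 0.00782), or by 0.65 relative to the median gene. Without COM-4 to COM-6 its change was -0.56 (adjusted p = 0.098) and with quantile normalisation -0.57 (adjusted p = 0.0558). Itgav, the vitronectin receptor chain, measured 9.89, 9.99 and 10.6 FPKM in NC and 9.49, 9.94 and 11.4 in COM, with a change of -0.01 (SE 0.07, adjusted p = 0.929). Since the median gene was lower, size factors turned this into 0.28 (adjusted p = 0.0483).

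Itgb7, known from gut-homing lymphocytes and dendritic cells, had the largest change of the 10 genes. It measured 3.65 and 4.65 FPKM in NC-6 and NC-5, 15.2 to 27.7 in the other NC samples, and 1.57, 3.36 and 4.54 (lowest, median, highest) in COM. The 2 low NC samples overlapped with COM-1 to COM-3 (4.20 to 4.54). Itgb7 fell by 1.64 (SE 0.42, adjusted p = 0.00541), or by 1.37 relative to the median gene, and without COM-4 to COM-6 the change was -1.23 (adjusted p = 0.0819). Itgae, its other alpha partner, was at 0.037 to 0.351 FPKM in NC-5, NC-6 and COM and at 0.844 to 1.28 in the other NC samples. The lymphocyte marker sum divided the samples as Itgb7 did, with 2.90 to 3.50 FPKM in NC-1 to NC-4, 0.435 and 0.696 in NC-6 and NC-5, and 0.385 to 1.41 in COM. The neutrophil marker sum was also lower in NC-5 and NC-6 than in the other NC samples and at most 573 FPKM in COM. The dendritic cell marker sum was lower in NC-5 and NC-6 than in the other NC samples, but higher in every COM sample than in any NC sample. That rise was mostly in Ccr7 (mean 9.94 FPKM in NC and 133 in COM). Flt3, Zbtb46 and Xcr1 also had higher means in COM, while Clec9a, Batf3, Cd209a and Siglech had lower ones. The part of lymphocytes, neutrophils and dendritic cells in the fall of Itgb7 was not tested.

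Samples that stand apart were left out in sets. No label names these sets and they rest on the same data, so p-values from them are descriptive. In NC-1 to NC-4 and COM-1 to COM-3 alone, Itgal (0.77), Itgb1 (0.53), Itga5 (1.31), Itga4 (1.16) and Itgb2 (0.38) rose and Itgb7 (-1.88) fell, so that 5 genes were higher and 1 lower, beside 20.7% and 40.2% of all genes in these samples. Itga6 was at -0.25 there (adjusted p = 0.0627). In NC-5, NC-6 and COM-4 to COM-6 alone, Itgal (1.57) and Itgb1 (1.16) rose, Itga6 (-1.89) and Itgb7 (-0.75) fell, and Itga4 (1.08, adjusted p = 0.0539) and Itga5 (1.01, adjusted p = 0.0574) missed the threshold with 2 NC samples. The 2 higher and 2 lower genes stand beside 11.5% and 33.2% of all genes. Itgal and Itgb1 rose in all 5 choices of samples, whereas no direction held for Itgam, Itgax and Itgb2.

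**Figure D3:**
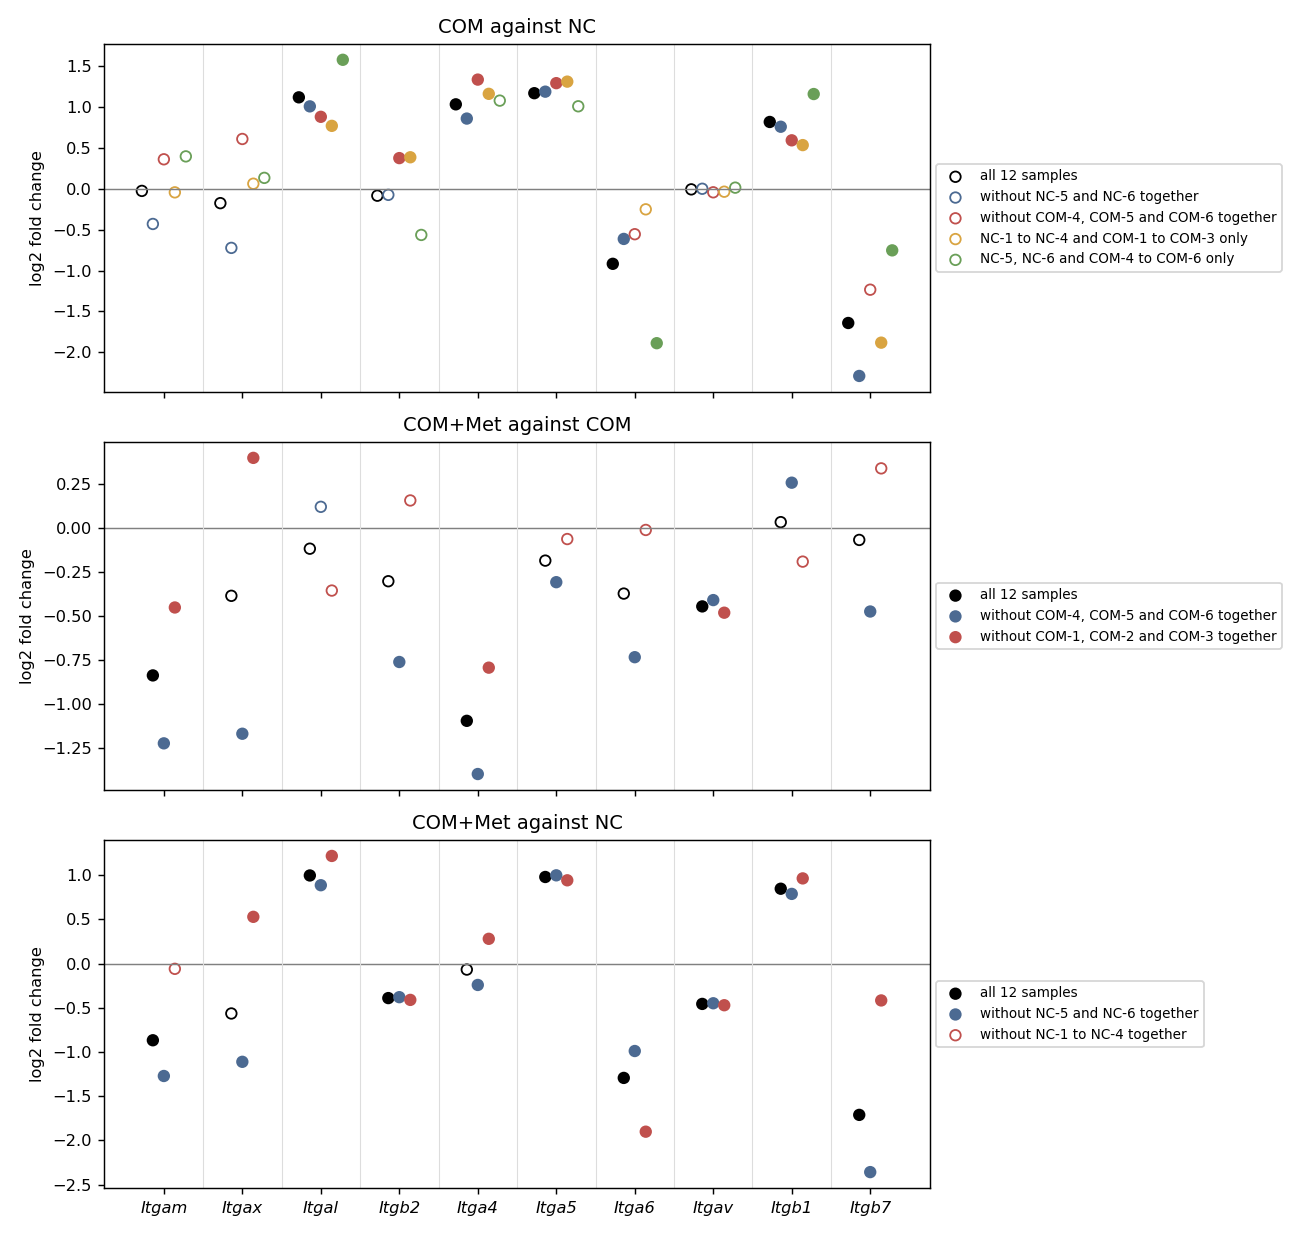
Log2 fold change of FPKM + 1 of the 10 genes with all 12 samples (black) and with sets of samples left out (colours), for each of the 3 comparisons. Filled points have an adjusted p below 0.05 from limma, and Itgax in COM+Met against COM lies at -1.17 without COM-4 to COM-6 and at 0.40 without COM-1 to COM-3.

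With Met, Itga4, Itgam and Itgav were lower than with crystals alone, and no member was higher. Of the 10 genes, 3 fell, beside 7.58% of the 10364 genes tested, and 0 rose, beside 5.77%. With a 2-fold change as well, 1 fell (background 1.61%) and 0 rose (background 0.608%). All 6 COM+Met samples lay below all 6 COM samples for 3 of the 10 genes (background 5.34%) and above for 0 (background 5.83%). The median log2 change of the 10 genes was -0.34, beside 0.0033 for all genes tested. With only COM-1 to COM-3 kept, 9 of the 10 genes passed, 1 higher and 8 lower, but 17.8% of all genes were then higher and 43.4% lower. With only COM-4 to COM-6 kept, 4 passed, 1 higher and 3 lower, beside 16.1% and 7.77% of all genes.

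Itga4 measured 13.4, 14.5 and 16.0 FPKM in COM+Met, below the 19.9 of the lowest COM sample. It fell by 1.10 (SE 0.19, adjusted p = 0.00268) to a mean of 14.7 ± 0.874 FPKM, beside 15.7 ± 3.48 in NC. The size of this fall depended on the COM samples, with COM-4 and COM-5 at 19.9 and 21.5 FPKM and the others at 38.5 to 41.6. Itgam measured 141, 154 and 159 FPKM in COM+Met, below the lowest COM sample (186) and next to NC-5 and NC-6 (156 and 160). It fell by 0.84 (SE 0.17, adjusted p = 0.00722), by 1.23 against COM-1 to COM-3 and by 0.45 against COM-4 to COM-6, and all of these passed the test. Itgav measured 6.93, 7.06 and 7.52 FPKM in COM+Met, while no COM sample was under 9.49. It fell by 0.45 (SE 0.06, adjusted p = 0.000819), and by 0.41 and 0.48 against COM-1 to COM-3 and COM-4 to COM-6, so that its size hardly depended on the COM samples chosen. The neutrophil marker sum was also lower in COM+Met than in every COM sample, and its part in the fall of Itgam was not tested.

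Of the 7 genes that did not pass, Itgal (145 ± 9.38 FPKM, change -0.12, SE 0.14), Itga5 (97.5 ± 3.89, -0.19, SE 0.15), Itgb1 (261 ± 10.6, 0.03, SE 0.13) and Itgb7 (2.85 ± 0.330, -0.07, SE 0.18) had COM+Met samples within the range of COM. Against COM-1 to COM-3 alone, Itgb1 was higher by 0.26 (adjusted p = 0.000226) and Itga5 and Itgb7 fell by 0.31 and 0.48 (adjusted p = 5.88e-05 and 0.000302), while against COM-4 to COM-6 Itgb1 was at -0.19, Itga5 at -0.06 and Itgb7 at 0.34, with no call. Itga6 (1.15 ± 0.244 FPKM) had a change of -0.37 (SE 0.19, adjusted p = 0.207), and of -0.74 (adjusted p = 0.00011) against COM-1 to COM-3. Itgax was at 67.6 to 72.5 FPKM in COM+Met, between the high and the low COM samples, with none of them in that range. Its change of -0.39 (SE 0.32, adjusted p = 0.454) was thus -1.17 (adjusted p = 9.1e-10) without COM-4 to COM-6 and 0.40 (adjusted p = 0.00696) without COM-1 to COM-3. Itgb2, at 488 to 551 FPKM, was lower than COM-1 to COM-3 by 0.76 on the log2 scale (adjusted p = 5.63e-08), while the change against COM-4 to COM-6 was 0.15 (adjusted p = 0.299). The range of Itgax over its COM+Met samples was 1.07-fold from lowest to highest, against 3.45-fold in COM and 3.50-fold in NC.

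COM+Met against NC shares samples with both other comparisons, and its values are set beside theirs. Of the 10 genes, 3 rose (background 19.3% of 10786 genes tested) and 5 fell (background 55.9%). With a 2-fold change 0 rose (background 5.66%) and 2 fell (background 13.6%), and the groups did not overlap for 3 higher (background 14.1%) and 4 lower genes (background 43.6%). The median log2 change was -0.42, beside -0.26 for all genes, which size factors moved to 0.011. Itgal (1.00, SE 0.09), Itga5 (0.98, SE 0.06) and Itgb1 (0.85, SE 0.05) were higher, with changes of 1.12, 1.17 and 0.82 in COM against NC. Itgb7 (-1.71, SE 0.39), Itga6 (-1.29, SE 0.19), Itgam (-0.87, SE 0.23), Itgav (-0.46, SE 0.04) and Itgb2 (-0.39, SE 0.04) were lower. Against NC-5 and NC-6 alone Itgb7 was at -0.42 (adjusted p = 0.00489), and against NC-1 to NC-4 at -2.36. Itgb2 lost its call with size factors (-0.08, adjusted p = 0.124) and in a single fit of all 18 samples (-0.39, adjusted p = 0.0591), and Itgam was at -0.06 (adjusted p = 0.348) against NC-5 and NC-6 alone. Itgax did not pass (-0.56, SE 0.31, adjusted p = 0.117), but was at -1.11 (adjusted p = 9.78e-11) against NC-1 to NC-4 and at 0.53 (adjusted p = 7.39e-06) against NC-5 and NC-6. Itga4 did not pass (-0.07, SE 0.12, adjusted p = 0.621), was at -0.24 (adjusted p = 0.0128) against NC-1 to NC-4 and at 0.28 (adjusted p = 0.00293) against NC-5 and NC-6, and its direction turned with size factors (0.23).

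**Figure D4:**
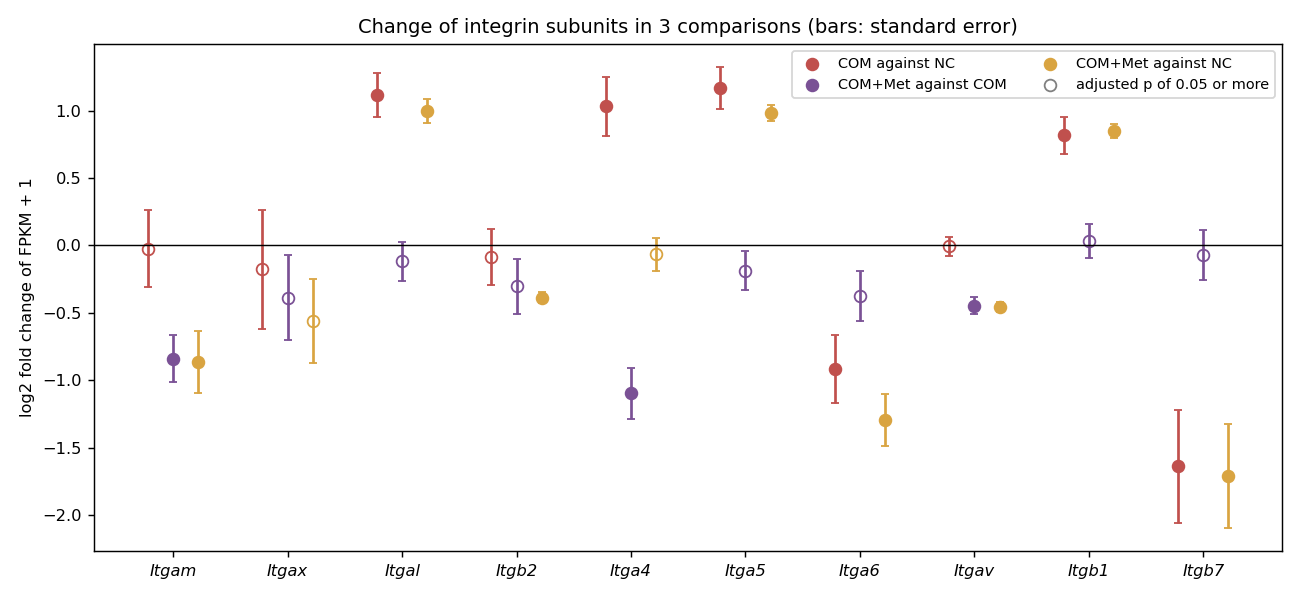
Log2 fold change of FPKM + 1 with its standard error for the 10 genes in COM against NC (red), COM+Met against COM (purple) and COM+Met against NC (yellow), n = 6 per group. Open points have an adjusted p of 0.05 or more, and Itga4 is the only gene that is filled above 0 in COM against NC and filled below 0 in COM+Met against COM.

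Ratios of 2 subunits within a sample hardly depend on how that sample is scaled. They were compared for 8 pairs in 3 comparisons by exact permutation tests on the log2 ratio, with p adjusted over the 24 tests. Itgal against Itgam had mean log2 ratios of -1.94 ± 0.47 in NC, -0.79 ± 0.70 in COM and -0.07 ± 0.15 in COM+Met. The difference was 1.15 for COM against NC (adjusted exact p = 0.026), 0.72 for COM+Met against COM (0.0519) and 1.88 for COM+Met against NC (0.00577). With COM-4 to COM-6 left out the first was 0.53 (0.157) and the second 1.35 (0.019), and with COM-1 to COM-3 left out the second was 0.097 (0.468). Itgb2 against Itgb1 was 2.22 ± 0.13, 1.32 ± 0.81 and 0.98 ± 0.06. It was lower in all COM than in all NC samples (difference -0.90, adjusted exact p = 0.00577), by little in COM-1 to COM-3 (1.98 to 2.03) and by much in COM-4 to COM-6 (0.072 to 0.96). The difference was -0.22 (adjusted exact p = 0.0536) when the latter were left out.

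Itgb7 against Itgb1 fell from -3.66 ± 1.09 in NC to -6.37 ± 0.90 in COM, a difference of -2.71 with no overlap (adjusted exact p = 0.00577), and was -6.47 ± 0.19 in COM+Met. The difference of COM from NC was -1.95 (adjusted exact p = 0.0672) when COM-4 to COM-6 were left out. This pair separated NC-5 and NC-6 from every COM sample, which the FPKM of Itgb7 did not. Itgam against Itgb2 was -1.28 ± 0.65 in NC and -1.22 ± 0.10 in COM, and dropped by 0.54 to -1.76 ± 0.04 in COM+Met with no overlap against COM (adjusted exact p = 0.00577). In COM this ratio spanned -1.30 to -1.03 over all 6 samples, although Itgam and Itgb2 each spanned about the range between their 2 levels. NC-5 and NC-6, at -2.11, were below every COM+Met sample.

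Among the partners of Itgb1, Itga5 against Itga4 was 1.66 ± 0.43, 1.77 ± 0.74 and 2.73 ± 0.08, and rose by 0.95 with Met (adjusted exact p = 0.013). COM-4 (2.71) was within the range of the COM+Met samples (2.60 to 2.78) and COM-5 just under it, while COM-6 was at 0.67. Itga6 against Itga4 was -1.85 ± 0.85 in NC, -4.17 ± 0.39 in COM and -3.58 ± 0.35 in COM+Met, and the difference of -2.32 for COM against NC had no overlap (adjusted exact p = 0.00577). Itgav against Itga4 was -0.59 ± 0.34, -1.67 ± 0.49 and -1.03 ± 0.12, lower in COM than in NC by 1.08 (0.00945) and higher by 0.65 with Met (0.0397). The latter missed the threshold when COM+Met-1, COM+Met-2, COM+Met-3, COM+Met-5 or COM+Met-6 was left out (0.0519 to 0.0693), and was 0.30 (0.19) without COM-1 to COM-3. Itgax against Itgam was -1.42 ± 0.24, -1.57 ± 0.45 and -1.12 ± 0.05, with a difference of 0.45 for COM+Met against COM (0.0381). COM-1 to COM-3, at -1.24 to -1.12, were within or near the COM+Met range of -1.18 to -1.06, so this difference came down to 0.049 without COM-4 to COM-6, and it missed the threshold when any COM+Met sample was left out (0.0952 to 0.119).

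**Figure D5:**
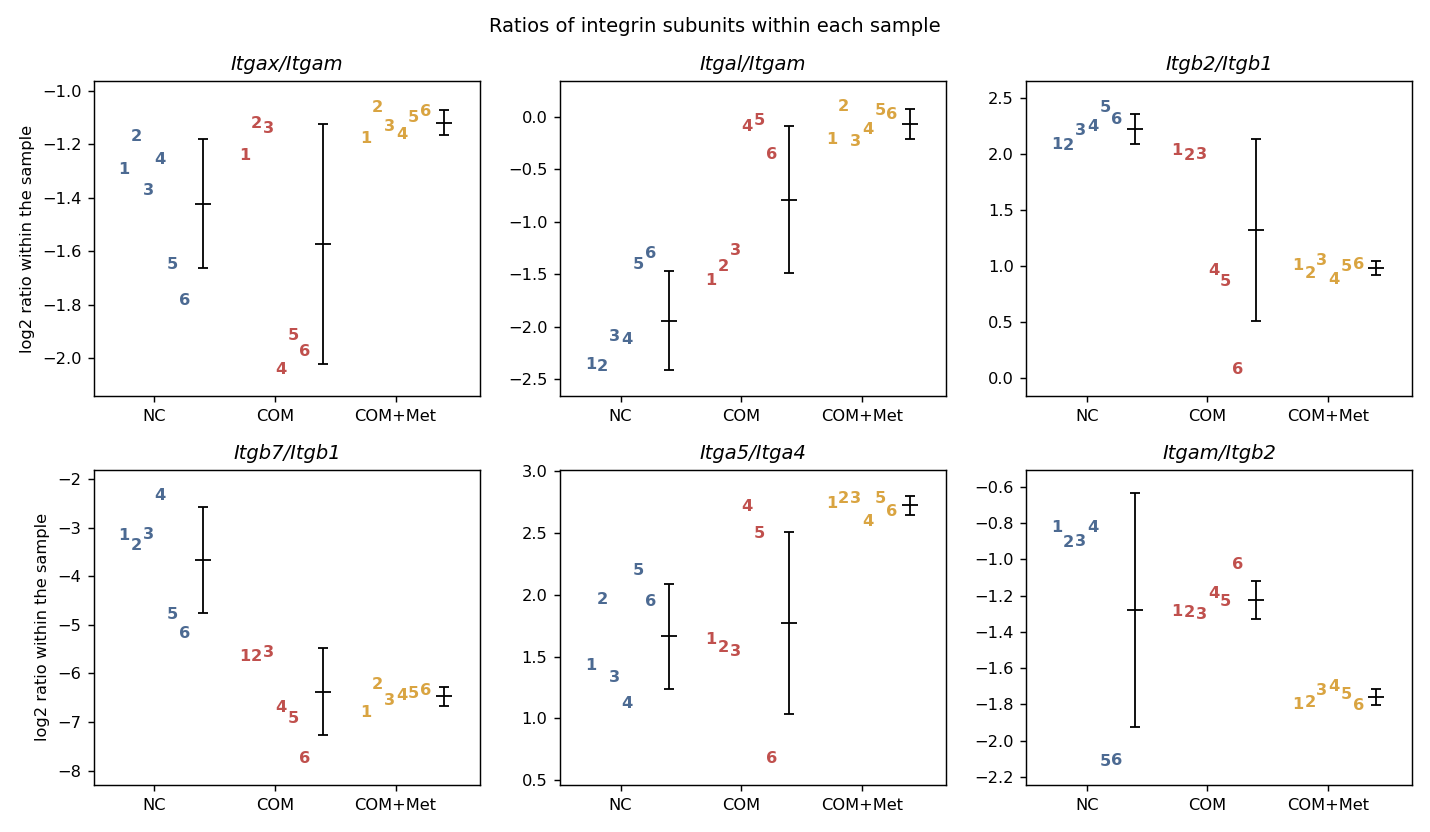
Log2 ratio of FPKM + 0.1 of 2 integrin subunits within each sample, for 6 of the 8 pairs. Digits are replicate numbers, and black bars are the group mean ± SD (n = 6). The COM+Met samples lie close together in each panel, and those of Itgam/Itgb2 (-1.81 to -1.70) are below all COM samples.

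Of the sum of Itga4, Itga5, Itga6 and Itgav, which leaves out other partners of Itgb1 such as Itga1, Itga5 took 61.7% ± 3.99 in NC, 70.6% ± 9.28 in COM and 80.9% ± 0.588 in COM+Met. Itga4 took 19.8% ± 4.71, 21.7% ± 7.96 and 12.2% ± 0.595, with 34.4% in COM-6. Itgav took 12.8% ± 0.488, 6.49% ± 1.45 and 5.94% ± 0.402, and Itga6 5.68% ± 2.49, 1.17% ± 0.468 and 0.955% ± 0.193. The sum of the 4 alpha chains was 76.8 to 83.2 FPKM in NC, 121 to 178 in COM and 112 to 124 in COM+Met.

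The other integrin subunits were mostly at low levels. Of 16 listed, 9 never exceeded 1 FPKM and Itgb6 was listed at 0 in all samples, while Itga1, Itgb3 and Itgb5 could be tested. All 3 fell in COM against NC, beside 40.6% of all genes tested. Itgb3, which pairs with Itgav in the vitronectin receptor of macrophages and osteoclasts, measured 8.23 to 15.3 FPKM in NC, 1.29 to 3.10 in COM and 6.57 to 8.25 in COM+Met. It fell by 1.82 in COM (adjusted p = 3.7e-06) and rose by 1.36 in COM+Met against COM (adjusted p = 5.66e-05), with no overlap in either. It rose in COM+Met by 1.20 against COM-1 to COM-3 and by 1.52 against COM-4 to COM-6. Against NC it was lower in COM+Met by 0.46 (adjusted p = 0.00652), and at -0.18 with size factors (adjusted p = 0.242). Its partner Itgav moved otherwise, with no change passing in COM against NC and lower levels in COM+Met. Itgb5, another partner of Itgav, fell from 28.8 ± 4.38 FPKM in NC to 17.1 ± 3.91 in COM and was at 22.2 ± 1.73 in COM+Met. Itga1, a collagen receptor chain that pairs with Itgb1, was at 7.97 to 8.68 FPKM in NC-1 to NC-4, 2.45 to 2.57 in NC-5 and NC-6, 2.83 to 3.02 in COM-1 to COM-3, 0.303 to 0.805 in COM-4 to COM-6 and 0.775 to 1.05 in COM+Met. It fell by 1.47 in COM against NC (adjusted p = 0.00658; without COM-4 to COM-6 -0.79, adjusted p = 0.111). Itgb8 was under the filter, with 1.59 to 2.20 FPKM in COM-1 to COM-3 and at most 0.828 in any other sample.

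Of 24 genes for integrin ligands, 13 were tested in COM against NC. Of these, 3 rose and 6 fell, beside 12.7% and 40.6% of all genes. The 13 had a median log2 change of -0.53 beside -0.27 for all genes. Fn1, which encodes fibronectin, fell by 2.35 (56.4 ± 25.6 to 11.7 ± 10.1 FPKM) and Cyr61, a matricellular ligand, by 1.35. Thbs1, which encodes thrombospondin-1, rose by 1.56 (from 14.1 to 105 FPKM in NC to 80.6 to 374 in COM, adjusted p = 0.038), with changes of -0.16 (adjusted p = 0.101) in NC-1 to NC-4 and COM-1 to COM-3 alone and 4.01 (adjusted p = 0.000539) in the remaining samples alone. Without NC-5 and NC-6, 0 ligand genes rose and 5 fell, beside 10.7% and 32.3% of all genes, and without COM-4 to COM-6 Fn1 fell by 1.47. With Met, 1 of 11 rose against COM and 1 fell, beside 5.77% and 7.58% of all genes. Mfge8, which encodes a bridge between apoptotic cells and Itgav integrins, rose (1.23, adjusted p = 0.0215), and F11r, which encodes JAM-A, fell (-1.25, adjusted p = 0.0139). Against COM-1 to COM-3 these were 0.77 and -1.88, and against COM-4 to COM-6 they were 1.68 and -0.61, the last without a call (adjusted p = 0.0548). Of the 11 ligand genes, 7 were higher and 3 lower against COM-1 to COM-3 (17.8% and 43.4% of all genes), and 1 and 2 against COM-4 to COM-6 (16.1% and 7.77%). Against NC, 5 of 13 rose in COM+Met and 7 fell, beside 19.3% and 55.9% of all genes. They were led by Fn1 (-2.79), F11r (-2.23), Cyr61 (-1.66), Tnc, which encodes tenascin-C (-1.60), Icam1, a ligand of LFA-1 and Mac-1 (1.34), and Thbs1 (1.24, but 0.50 against NC-1 to NC-4 and 2.71 against NC-5 and NC-6).

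Of the proteins that activate integrins or link them to actin, 32 were tested in COM against NC, with a median of -0.53. Of the 32, 3 rose and 16 fell, beside 12.7% and 40.6% of all genes. Fyb, which encodes the adaptor ADAP, rose by 2.54 from 32.9 ± 16.5 to 183 ± 87.1 FPKM, with no overlap. Tns1 (tensin-1) fell by 3.31, the tetraspanin Cd9 by 1.87, Zyx (zyxin) by 1.34, Flna (filamin A) by 1.29 and Parvb (beta-parvin) by 1.16, each without overlap. In NC-1 to NC-4 and COM-1 to COM-3 alone the changes of Fyb, Zyx and Parvb were 1.45, -0.81 and -0.60, and in NC-5, NC-6 and COM-4 to COM-6 alone 4.23, -1.69 and -1.82. Flna was at -0.69 in the former and Cd9 at -3.02 in the latter, and all 5 genes passed in both. With size factors 6 of the 32 were higher and 13 lower, beside 23.5% and 23.7% of all genes. Against COM, 0 rose in COM+Met and 2 fell, beside 5.77% and 7.58% of all genes. The 2 were Zyx (-1.20, adjusted p = 0.0201) and Rap1a, the GTPase of inside-out activation (-0.40, adjusted p = 0.0461). With TPM only Zyx passed. Against COM-1 to COM-3 the counts were 3 and 23 of 32, beside 17.8% higher and 43.4% lower of all genes, and against COM-4 to COM-6 they were 5 and 4, beside 16.1% and 7.77%, with Zyx at -1.91 and -0.48. The comparison of COM+Met with NC had 4 higher and 23 lower genes, beside 19.3% and 55.9% of all genes. They were led by Tns1 (-3.24), Zyx (-2.53), Fyb (2.39), Cd9 (-2.13), Flna (-1.74) and Vcl, which encodes vinculin (-1.38).

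Of 22 kinases and GTPase regulators downstream of integrins tested in COM against NC, 4 rose and 12 fell, beside 12.7% and 40.6% of all genes. The 22 had a median of -0.37. With size factors 7 were higher and 6 lower, beside the same 23.5% and 23.7%. Src rose by 2.09 (6.02 ± 3.99 to 26.0 ± 9.67 FPKM) and Rac2, the haematopoietic Rac, by 1.02 (93.4 ± 6.99 to 194 ± 37.8). Elmo1, a part of the Rac activator with the Dock proteins, fell by 1.35, and the exchange factor Vav3 by 1.05 (by 0.69 in NC-1 to NC-4 and COM-1 to COM-3 alone). In COM+Met against COM 0 rose and 4 fell, beside 5.77% and 7.58% of all genes. Among the 4 were the Src family kinases Fgr (-1.14, adjusted p = 0.00279) and Lyn (-0.45, adjusted p = 0.00219) and the GTPase Cdc42 (-0.39, adjusted p = 0.0306). Against COM-1 to COM-3 the counts were 6 and 13 of 22, beside the same 17.8% and 43.4%, and against COM-4 to COM-6 they were 1 and 3, beside 16.1% and 7.77%, with Fgr at -1.60 and -0.68. In COM+Met against NC 8 rose and 14 fell, beside 19.3% and 55.9% of all genes. They were led by Src (2.66), Fgr (-2.04), Elmo1 (-1.53), Vav3 (-1.53) and Rac1 (-1.08).

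The genes with the most similar pattern were found by Pearson's r of log2(FPKM + 1) over the 18 samples among the 7483 genes whose mean reached 5 FPKM. The samples fall into sets that stand apart, so r describes these samples only. For Itgam these were Sgms2 (0.96), Il10ra (0.96) and Spint1 (0.96), for Itgax Dpep2 (0.97), Arl4c (0.96) and Btg1 (0.95), for Itgal Fcgr1 (0.97), Trafd1 (0.97) and Pnp (0.97), for Itgb2 Cyb5r3 (0.99), Tsku (0.98) and Wipi1 (0.98), and for Itgb7 Il6st (0.97), Dnajc15 (0.96) and Dpysl2 (0.96).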

How the data were processed

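The 18 RNA-seq samples of BMDMs were put into NC, COM and COM+Met (6 each) from their titles and treatment labels. The authors deposited FPKM values per gene and sample, without pooling replicates. Of tools and builds, Bowtie 0.12.2, mm8 and mm9 stand in the submitters' processing notes, and the quantifier is not given in the sources used here. No counts are given, so the depth, counting intervals and floors are unknown. Positions came from GENCODE M21 on GRCm38, by Ensembl identifier, and promoter sequence from RefSeq on GRCm38.p6. All 18 sample columns were used.

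FPKM was tested as log2(FPKM + 1), which understates changes of low genes, with limma 3.58.1 (trend) in R 4.3.3, over genes whose mean in the 12 compared samples reached 1 FPKM, and with Benjamini-Hochberg adjustment over all of them. Single members and within-sample ratios (0.1 FPKM added to each gene) were compared by two-sided exact permutation tests. The scripts were tested on simulated data. Plots were drawn with matplotlib 3.10.9 under Python 3.11.15.

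The 10 genes and all lists were chosen with earlier results of these data known. Named were all 10 genes, of 4 lists (other subunits, ligands, activators and adaptors, signalling) the genes that passed at 2-fold, at most 6 per comparison, and the 3 genes most correlated with Itgam, Itgax, Itgal, Itgb2 and Itgb7. Other genes of the lists, such as Itgb5, Itgae, Itgb8, Rap1a, Lyn and Cdc42, were named after their values were seen, and 1 gene of the lists is not reported here. Lists of 7 cell types gave marker levels. Megakaryocyte and platelet markers summed to 14.1 to 121 FPKM in NC, 32.7 to 143 in COM and 67.6 to 85.7 in COM+Met, mostly Pf4, stromal markers to 17.6 to 63.8, 5.93 to 38.9 and 2.65 to 7.65, and tubular epithelial markers to 10.9 to 18.2, 0.468 to 1.37 and 0.057 to 0.332, with Cdh1 alone above 1 FPKM in NC.

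Results were recomputed with pseudocounts of 0.1 and 5, without the filter or with a mean of 5 FPKM as the limit, and with TPM, quantile normalisation, median-of-ratios size factors, sample weights, a single fit of all 18 samples, a block for the replicate number, each sample left out in turn, and sets of samples left out, of which those restricting COM against NC to part of both groups, leaving out COM-1 to COM-3 or leaving out NC-1 to NC-4 were chosen after seeing the data. No label names any of these sets, including COM-4 to COM-6 and NC-5 and NC-6. They hold samples that stand apart in these same data, so p-values from them are descriptive.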

Additional observations from a re-analysis of the deposited data

Results flagged for a closer look

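Within each group of 6 samples, the gap of the highest or lowest sample to the others was set against the group's range for the 10 genes (30 groups). Chance flags about 1 in 20 groups, and 2 were flagged. Itga5 in COM-6 was 66.4 FPKM, where the other COM samples were at 119 to 131. Itga5 in COM+Met-1 was 90.2 FPKM, where the others were at 97.1 to 101. COM-6 also had the highest Itgb1 (361 FPKM) and the lowest Itgb2 (379 FPKM) of its group, and without it Itga5 fell by 0.33 in COM+Met against COM (adjusted p = 0.000765), where it had not passed with all samples (-0.19).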

How the results depend on the processing

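The number of the 10 genes that passed was within 1.5 times of its value in 72 of 74 recomputations with other settings. The exceptions were COM+Met against COM with sample weights (9) and without COM-4 to COM-6 (9), against 3. This limit is loose, since a rise from 8 to all 10 stays within it. A count also shows neither which genes passed nor their direction. In COM against NC, 5 genes were higher and 0 lower without COM-4 to COM-6, against 4 and 2 with all samples. With NC-5, NC-6 and COM-4 to COM-6 alone, 2 were higher and 2 lower. Leaving out single samples gave 6 to 6, 3 to 4 and 8 to 9 genes in the 3 comparisons. Of 736 recomputed changes of single genes, 660 kept direction and side of the threshold and 47 changed sign. Of the rest, 20 came to pass and 9 ceased to pass. All of those that changed sign had not passed with all samples, but some passed with the new sign. Examples are Itgb2 in COM against NC without COM-4 to COM-6 (0.37, limma adjusted p = 0.000177) and Itgax in COM+Met against COM without COM-1 to COM-3 (0.40, 0.00696). The cause was not tested.

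In COM against NC, size factors gave 0.29 for Itgam, 0.14 for Itgax, 0.23 for Itgb2 and 0.28 for Itgav, and quantile normalisation gave 0.034 for Itgam and 0.24 for Itgav, since both raise the median gene. Sample weights gave 0.11 for Itgax and 0.34 for Itgb2. Without COM-4 to COM-6, Itgam was 0.36, Itgax 0.61 and Itgb2 0.37, and the ratios Itgax/Itgam 0.25, Itgam/Itgb2 -0.0135 and Itga5/Itga4 -0.079. Without NC-5 and NC-6, Itgam/Itgb2 was -0.36. In NC-1 to NC-4 and COM-1 to COM-3, Itgax was 0.061, Itgb2 0.38, Itgax/Itgam 0.11 and Itgam/Itgb2 -0.43. In NC-5, NC-6 and COM-4 to COM-6, Itgam was 0.39, Itgax 0.13, Itgav 0.013 and Itga5/Itga4 -0.11. Leaving out single samples gave -0.19 to 0.0825 for Itgam, -0.41 to 0.012 for Itgax, -0.18 to 0.063 for Itgb2, -0.0395 to 0.0079 for Itgav, -0.0794 to 0.33 for Itga5/Itga4 and -0.11 to 0.15 for Itgam/Itgb2.

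In COM+Met against COM, Itgb1 was -0.0145 with TPM, and Itgal was 0.093 with sample weights and 0.12 without COM-4 to COM-6. Against COM-1 to COM-3 alone, calls were gained by Itgb1 (0.26, adjusted p = 0.000226), Itgb7 (-0.48, 0.000302), Itga6 (-0.74, 0.00011), Itgb7/Itgb1 (-0.85, 0.019) and Itgb2/Itgb1 (-1.02, 0.019), among others. Without COM-1 to COM-3, Itgax was 0.40, Itgb2 0.15, Itgb1 -0.19, Itgb7 0.34, Itgb7/Itgb1 0.66 and Itgb2/Itgb1 0.35. Leaving out single samples gave -0.017 to 0.13 for Itgb1, -0.20 to 0.022 for Itgb7 and -0.37 to 0.064 for Itgb7/Itgb1, and without COM-5 Itga6 fell by 0.52 (adjusted p = 0.0346). In COM+Met against NC, Itga4 was 0.23 with size factors, 0.16 with quantile normalisation, 0.28 without NC-1 to NC-4 and -0.15 to 0.0006 with single samples left out. Without NC-1 to NC-4, Itgax was 0.53 and Itgam/Itgb2 0.35. Without NC-5 Itgax was at -0.77 (adjusted p = 0.0243) and without NC-6 at -0.80 (adjusted p = 0.011).

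Of 376 recomputed ratios, 314 kept direction and side and 17 changed sign. Some of the 17 passed with the new sign, such as Itgam/Itgb2 in COM against NC without NC-5 and NC-6 (-0.36, adjusted exact p = 0.0114). Of the remaining ratios, 7 came to pass and 38 ceased to pass. With 2 samples in a group, the exact test has few assignments and can hardly pass after adjustment. Against NC-5 and NC-6 alone, Itgal/Itgam in COM+Met was at an adjusted exact p of 0.0536. With 3 COM samples left ratios could still pass, as Itgal/Itgam did in COM+Met against COM without COM-4 to COM-6 (adjusted exact p = 0.019). Without NC replicate 5 or 6 the change of Itgb2/Itgb1 in COM against NC was at an adjusted p of 0.0547 or 0.0519.

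Samples with the same replicate number did not deviate together (correlations of -0.22 to 0.057), so numbers are not taken as pairs. With the replicate block 6, 3 and 8 of the 10 genes passed, as without it, while all genes passing went from 5805 to 5245, from 1384 to 744 and from 8114 to 7893. The depth is unknown, which leaves the precision of the low genes Itga6 and Itgb7 unknown.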
